A study of Mus musculus with 23 samples.

Results

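The comparison described here sets mesenteric arteries of mice infused with angiotensin II for 14 days against arteries of mice that had sham surgery and were killed after the same time. It holds the 5 libraries labelled as 14-day Ang II and the 6 labelled as 14-day sham, 11 of the 23 libraries of the series, and it covers all genes. Male C57BL/6J mice aged 10 to 12 weeks received angiotensin II at 1000 ng/kg/min under the skin from an osmotic minipump, while control mice underwent a sham operation for which no vehicle infusion is named. The arteries were freed of adjoining tissue, perivascular fat and veins, and 500 ng of total RNA from each animal went into a stranded total RNA library. The other 12 libraries are the same contrast after 7 days, 6 a group, and serve here only to share the estimate of spread and to show where the 14-day response differed. The study asks how the arterial transcriptome responds to this hormone at each time.

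Angiotensin II is the effector peptide of the renin-angiotensin system. It contracts vascular smooth muscle through its Gq-coupled receptor, raises blood pressure when infused, and stimulates growth and matrix synthesis in vascular cells. Mesenteric arteries include small vessels that set peripheral resistance, and in hypertension their walls are known to stiffen and remodel as collagen, fibronectin and other matrix proteins build up in the media and adventitia.

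Values are normalised reads as the authors deposited them, in which 1 factor per library scales the reads of every gene. Where a gene is given in full, its Ang II values run from replicate 1 to replicate 5, and its sham values are the lowest to the highest of the 6 libraries with their median. Differences are log2 fold changes of Ang II over sham, with the standard error, on the scale of log2(value + 0.5), and p-values are those of limma after Benjamini-Hochberg adjustment over the 14896 genes tested. A gene was called when this adjusted p was under 0.05. In whole arteries, fewer cells of a type and less RNA per cell cannot be told apart.

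The 11 libraries differed in depth, at 8807407 to 18004347 reads in genes in sham and 15507654 to 21509283 in Ang II libraries. Smooth muscle genes were high in all of them, with the summed value of the contractile list at 11226 to 14425 in sham and 13189.8 to 15818 in Ang II arteries. Genes of pancreatic acinar cells, which are not artery cells, made up 11.1% to 22.9% of the summed values in sham and 8.54% to 14.6% in Ang II libraries. Neuronal genes stood apart in 3 libraries, with a mean log2 level over the sham mean of 1.96 in sham replicate 1, 2.41 in Ang II replicate 1 and 2.83 in Ang II replicate 3, against -0.90 to -0.14 in the other 8. Skeletal muscle genes summed to 2108 in sham replicate 4 and to 7.81 to 17.8 in the other 10 libraries, although the fast myosin Myh4 had no read in any. Neutrophil genes summed to 121 in that same library against 2.74 to 32.4, with Ly6g at no read throughout, and lymphocyte genes to 640 in Ang II replicate 2 against 38.2 to 159. Genes of gut epithelium and islets summed to 1396 to 5344 in sham and 903 to 2282 in Ang II libraries, with no read of the intestinal Fabp2, Alpi and Cdx1. Beyond the fits that leave out these libraries, the part of such tissue in the results was not tested. Numbers in the sample titles begin with 26 for 4 sham and 3 Ang II animals, with 27 or 28 for the other 2 sham animals, and with 30 for the other 2 Ang II animals. Outside the 26 series, title digits and treatment cannot be told apart, and the labels do not say what the digits mark.

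Angiotensin II raised 602 genes, 4.04% of those tested, and lowered 300, which is 2.01%; in either direction the share was 6.06%. The median log2 fold change over all genes was 0.034. Only 51 of the raised and 38 of the lowered genes moved by at least 2-fold. In 258 of the raised genes every Ang II library lay above every sham library, and in 109 of the lowered genes every one lay below. Over all genes, called or not, such complete separation was found upwards in 2.36% and downwards in 1.29%. The balance of directions depended on the scaling: raised genes were 66.7% of calls as deposited, 56.3% (489 higher, 379 lower) with median-of-ratios factors, 52.5% (449 and 407) with trimmed-mean factors computed without acinar, Reg and AY036118 reads, and 46.6% (406 and 465) with upper-quartile factors.

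The Ang II libraries differed in how far the called genes lay from sham. These genes were called from the same libraries, so that the direction of the medians follows from the choice. What set the libraries apart was not tested. Over the raised genes, the median log2 deviation from the sham mean was 0.56 in replicate 1, 0.30 in replicate 2, 0.73 in replicate 3, 0.62 in replicate 4 and 0.61 in replicate 5. Over the lowered genes it was -0.53, -0.29, -1.03, -0.60 and -0.59 in the same order. Replicate 2 was nearest to sham in both directions and replicate 3 farthest. Without replicate 2 the counts were 1410 higher and 783 lower, and without replicate 3 they were 341 and 76. Calls made in every one of the 11 fits that left out 1 library numbered 227 higher and 60 lower. In the 7 libraries whose titles begin with 26, limma called no gene, with 1510 at an unadjusted p under 0.05. With the title digits as a term in the model, where the 14-day fold change rests on the same 7 libraries, 14 genes were higher and 2 lower, and no gene list below kept more than 2 calls.

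**Figure D1:**
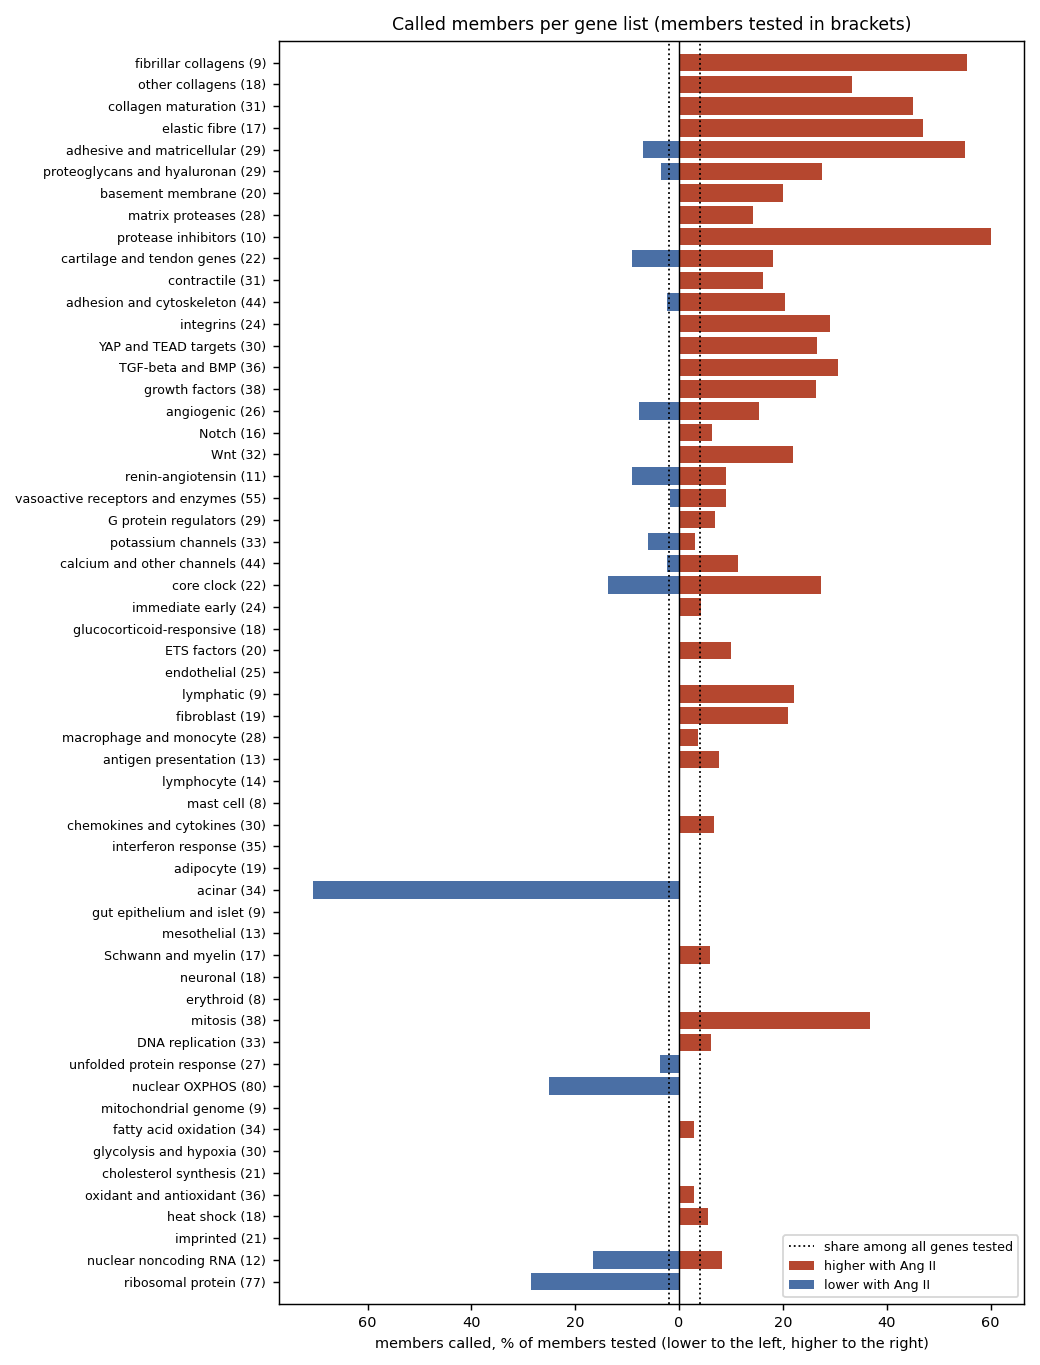
Share of tested members of each gene list that were called higher (right) or lower (left) in 14-day Ang II arteries, in percent, for lists with at least 8 tested members; the dotted lines mark the 4.04% and 2.01% found among all genes tested. Matrix, integrin and mitosis lists lie to the right, and the acinar, OXPHOS and ribosomal protein lists to the left.

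Gene length moved with the comparison, and the count with its trend removed stands beside each list of at least 4 calls in a direction that the removal moved by over 1.5 times. Among the 641 genes with exons of up to 1000 bases in all, the median log2 fold change was -0.25, with 4 called higher and 47 lower. Among the 1911 genes above 9000 bases it was 0.13, with 150 higher and 4 lower. At 7 days the medians of the same bins ran from -0.07 to 0.01. The shortest genes lay furthest below sham in Ang II replicate 3, at a median deviation of -0.64, and the other Ang II libraries ran from -0.25 to -0.05 and sham libraries from -0.07 to 0.14. With this trend removed from every library, 397 genes (2.67%) were higher and 296 (1.99%) lower. The part of length in the results was tested only by that removal.

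**Figure D2:**
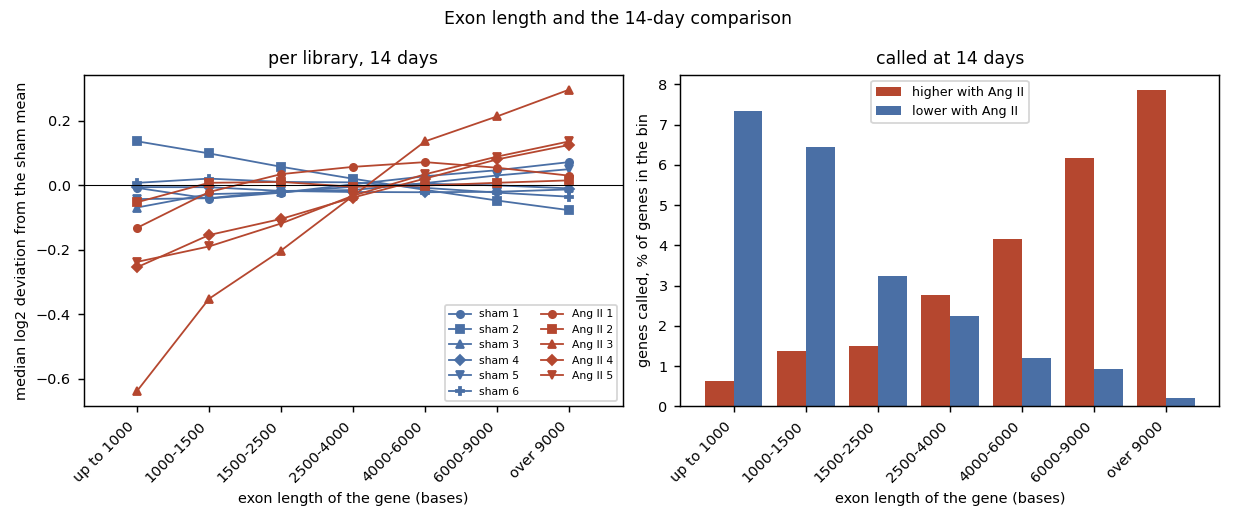
Left, median log2 deviation from the sham mean for genes grouped by total exon length in bases, 1 line per 14-day library; right, percent of genes in each length bin called higher or lower. Ang II replicate 3 has the steepest line, from -0.64 for the shortest to 0.30 for the longest genes, and the share called higher rises from 0.624% to 7.85% across the bins.

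Fibrillar collagens, the load-bearing fibres of the adventitia and media, were higher. Of 9 chains tested 5 rose and none fell, with a median log2 fold change of 0.76. Col3a1, the chain of collagen III, measured 4092, 1952, 2352, 2820.2 and 2595 with Ang II and 1145 to 1508, median 1315 in sham arteries. Its groups did not overlap (log2 fold change 1.02 ± 0.19, adjusted p = 0.0036). Col1a1, a chain of collagen I, measured 1458, 467, 1439, 874 and 946 with Ang II against 297 to 468, median 356. Replicate 2 stayed at the top of the sham range while the other 4 lay well above it (adjusted p = 0.0053). Its partner Col1a2 rose by 1.07 and the collagen V chains Col5a1 and Col5a2 by 0.87 and 0.76 on the log2 scale. The list's mean level over sham was 0.96, 0.066, 0.83, 0.48 and 0.48 in Ang II replicates 1 to 5 and -0.18 to 0.19 in sham libraries, so that replicate 2 lay inside the sham range. These are long transcripts, with a median of 9591 exonic bases, and 5 were still called with the length trend removed.

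Of the other collagens, 6 of 18 rose and none fell, at a median of 0.33. Col12a1, a collagen that links fibrils to their surroundings, measured 255, 105, 159.5, 137 and 169.7 with Ang II and 54.1 to 85.03, median 66.1 in sham. All 5 Ang II libraries exceeded the highest sham value (log2 fold change 1.23 ± 0.19, adjusted p = 9.6e-04). Col8a1, a short-chain network collagen of vessel walls, measured 313, 161, 134, 193 and 174 against 53.7 to 111, median 83.7, again without overlap (adjusted p = 0.0016). Col14a1, Col15a1, Col18a1 and Col6a3 rose by 0.56, 0.59, 0.91 and 0.80. Ang II replicate 2 lay inside the sham range for Col15a1, Col18a1 and Col6a3. In this list, calls higher numbered 3 in the 11 libraries alone.

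Enzymes that modify, cross-link or process collagen were higher too: 14 of 31 were higher and none lower, with a median of 0.43 and 13 higher once the length trend was removed. Sulf1 does not act on collagen but trims sulfate from heparan chains. It lies on chromosome 1, 12692277 to 12861192 (mm10), and it measured 176, 173, 172, 198 and 208 with Ang II and 100.3 to 123, median 115 in sham. The 5 Ang II values were tightly grouped and clear of sham (log2 fold change 0.69 ± 0.081, adjusted p = 7.2e-05). Loxl1, a lysyl oxidase needed for elastic fibres, measured 112, 69.2, 99.7, 108 and 112 against 38.7 to 57.3, median 48.8. Lox, which cross-links collagen and elastin, measured 197, 121, 121, 174 and 170.1 against 68.3 to 108, median 89.9. Neither gene overlapped between groups, and both had replicate 2 among the lowest Ang II values (log2 fold change 1.04 and 0.82). Adamts2, which removes the amino propeptide of procollagen, rose by 1.01 ± 0.18 with no overlap, and Bmp1, which removes the carboxyl propeptide, by 0.59 ± 0.13. Plod2, a lysyl hydroxylase acting on collagen telopeptides, rose by 0.75. Serpinh1, the collagen chaperone, was not called at 0.017 (adjusted p = 0.96), with 677, 399, 283, 448 and 455 in Ang II arteries against 341 to 529, median 451. The count of 14 became 7 in the 11 libraries alone.

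Elastic fibre genes were higher in 8 of 17 cases, with a median of 0.53. Ltbp2, a microfibril-associated protein on chromosome 12, 84783212 to 84876532, had the largest fold change of the list. It measured 226, 28.3, 88.6, 86.7 and 74.9 with Ang II and 11.7 to 18.7, median 14.8 in sham. Replicate 1 was far above the rest and replicate 2 the lowest, yet all 5 exceeded sham (log2 fold change 2.44 ± 0.35, adjusted p = 5.8e-04). Eln, which encodes elastin itself, measured 228, 90.6, 237, 213 and 250.1 against 67.4 to 129, median 96.01, with replicate 2 inside the sham range (log2 fold change 0.99 ± 0.26, adjusted p = 0.026). Fbln5, a fibulin that guides elastin onto microfibrils, rose by 0.61 and the microfibril genes Mfap2 and Mfap4 by 0.83 and 0.88, all without overlap. Ltbp1, which tethers latent TGF-beta to the matrix, rose by 0.64 ± 0.13. By setting, calls higher were 5 in the 11 libraries alone, and 14 with array weights.

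Adhesive and matricellular proteins formed one of the largest groups, with 16 of 29 higher and 2 lower at a median of 0.75. Fn1, the gene of fibronectin, measured 1711, 599, 1864, 1964 and 1512 with Ang II and 343 to 666, median 468 in sham. Replicate 2 fell inside the sham range, and the other 4 lay at more than 2-fold the highest sham value (log2 fold change 1.60 ± 0.27). Postn, a matricellular protein of activated fibroblasts, measured 862, 658, 564, 970.3 and 799 against 254 to 352, median 309, and here replicate 2 was also clear of sham (adjusted p = 6.3e-06). Tnc, which encodes tenascin C, measured 151, 34.7, 55.1, 70.7 and 58.6 against 10.2 to 26.7, median 19.3. Comp, a pentameric thrombospondin of cartilage and vessel wall, measured 29.5, 9.797, 9.69, 10.2 and 7.43 against 1.85 to 4.17, median 3.04. Neither Tnc nor Comp overlapped, and replicate 1 was the highest for both. Ctgf, a growth factor-binding matricellular protein, measured 595, 533, 559, 762 and 889.9 against 213 to 371, median 267, without overlap (log2 fold change 1.27 ± 0.19, adjusted p = 7.3e-04). Sparc, Aebp1 and Cilp rose by 0.90, 0.89 and 0.75. Cyr61, a relative of Ctgf, was not called, with 231, 104, 247, 177 and 134 in Ang II arteries against 25.1 to 183, median 106. Spp1, which encodes osteopontin, was one of the members that fell, from 226 to 512, median 294 in sham to 162, 193, 78.6, 128 and 207 with Ang II, with no overlap (log2 fold change -1.09 ± 0.27, adjusted p = 0.021). The other was Vtn, vitronectin, named here after its values were seen (-0.64, adjusted p = 0.017). 

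**Figure D3:**
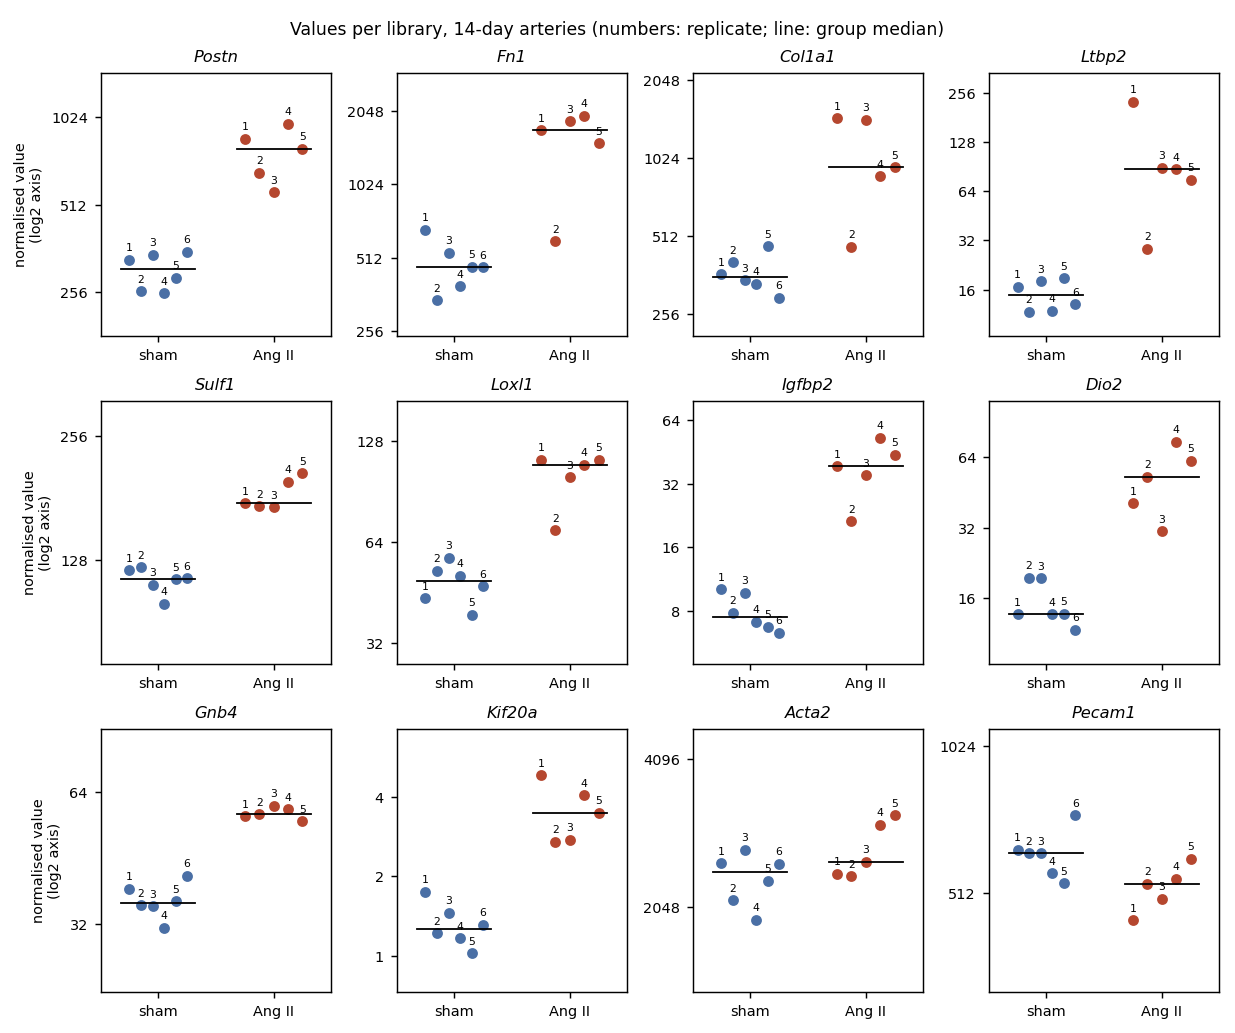
Normalised value (log2 axis) of 12 genes in each 14-day library, with replicate numbers and a line at the group median. Ang II libraries lie above sham without overlap for Postn, Ltbp2, Sulf1, Loxl1, Igfbp2, Dio2, Gnb4 and Kif20a, replicate 2 joins the sham range for Fn1 and Col1a1, and the groups overlap for Acta2 and Pecam1, which were not called.

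Among proteoglycans and hyaluronan genes, 8 of 29 rose and 1 fell. Acan, the large aggregating proteoglycan of cartilage, measured 9.27, 1.68, 1.76, 6.23 and 1.88 with Ang II and 0 to 0.973, median 0.357 in sham. These are low values, and no sham library reached the lowest Ang II library (log2 fold change 2.13 ± 0.42, adjusted p = 0.0055). At 14 days only Ang II libraries reached the value of 1 that the filter on low values asked for, which bears on this separation. Bgn, the small proteoglycan biglycan, measured 658, 527, 1288, 1066 and 1034 against 341 to 457, median 381 without overlap (log2 fold change 1.15 ± 0.17, adjusted p = 7.1e-04). The glypican Gpc6 rose by 0.69, the syndecan Sdc3 by 0.84, the pericyte and smooth muscle proteoglycan Cspg4 by 0.93 and lumican, Lum, by 0.74. Sdc4, a syndecan of focal adhesions, fell by 0.40 (adjusted p = 0.024). Versican, Vcan, was called at 7 days (log2 fold change 0.72, adjusted p = 0.0065) and not at 14 days (0.10, adjusted p = 0.71), and the test of the difference gave an adjusted p of 0.47. Members called higher numbered 4 with no filter on low values, with upper-quartile factors and in the 11 libraries alone, and 5 with trimmed-mean factors without acinar reads and with the length trend removed. Without sham replicates 2, 3, 4 or 6 or Ang II replicates 1, 3, 4 or 5 the count moved by over 1.5 times, and it ran from 4 to 10 over all 11 omissions.

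In the basement membrane list 4 of 20 rose, at a median of 0.23. Col4a5, a collagen IV chain, measured 213, 162, 175, 229 and 198 against 106 to 146, median 133 without overlap (adjusted p = 0.0081). Col4a2, the laminin chain Lamc1 and nidogen, Nid1, rose by 0.83, 0.51 and 0.48, each with Ang II replicate 2 inside the sham range. In this list, calls higher numbered 1 in the 11 libraries alone, and 9 with array weights. Leaving out single libraries gave 1 to 7, and the count moved by over 1.5 times without Ang II replicates 2, 3, 4 or 5.

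Matrix proteases rose in 4 of 28 cases and their inhibitors in 6 of 10, with medians of 0.33 and 0.34. Mmp2, gelatinase A, measured 337, 176, 178, 222 and 191 with Ang II and 102 to 146, median 128 in sham. Adamts6, a metalloproteinase with thrombospondin motifs, measured 17.7, 17.2, 14.8, 19.9 and 18.2 against 9.08 to 13.01, median 10.998. Both were clear of sham in all 5 Ang II libraries, by 0.79 and 0.65 on the log2 scale. Mmp11 and Adamts8, of the same families, rose by 0.70 and 0.78. Timp1, a secreted inhibitor of metalloproteinases, measured 85.3, 14.01, 12.7, 25.8 and 16.7 against 7.0999 to 9.33, median 8.16. Replicate 1 exceeded the next library more than 3-fold, and leaving out single libraries raised the adjusted p from 0.024 to at most 0.06. Serpine2, a protease nexin, measured 230.2, 173, 139.5, 229 and 185 against 92.2 to 119, median 110.2 (log2 fold change 0.81 ± 0.11, adjusted p = 4.4e-04). Timp2, Reck and Serping1 rose by 0.37, 0.47 and 0.30. Matrix proteases called higher numbered 9 with edgeR, 10 with DESeq2, and 12 with array weights. Without sham replicates 4 or 6 or Ang II replicates 2 or 5 the count moved by over 1.5 times, and it ran from 2 to 8 over all 11 omissions. Protease inhibitors called higher numbered 2 in the 11 libraries alone. The count ran from 3 to 7 when 1 library was left out, moving by over 1.5 times for Ang II replicates 4 or 5. In the cartilage and tendon list, which shares Comp, Cilp, Acan and Spp1 with those above, 4 of 22 rose and 2 fell, with the transcription factor Runx1 at 0.86 ± 0.19 and the secreted Cytl1 at -0.47 ± 0.13.

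Integrins, the receptors that hold cells to the matrix, were higher in 7 of 24 cases with a median of 0.41. Itga9, a receptor for tenascin C and osteopontin, measured 175, 129, 228, 229.9 and 218 with Ang II and 88.6 to 122, median 107 in sham. Itgav, the alpha chain of several integrins that activate latent TGF-beta, measured 163, 168, 194, 205 and 204 against 116 to 154, median 128. Neither overlapped (adjusted p = 0.0016 for both). Itgb5 and the shared beta chain Itgb1 rose by 0.59 and 0.30, also without overlap. The fibronectin receptor chain Itga5 measured 96.3, 55.1, 175, 102 and 129 against 41.3 to 68.98, median 57.1, and the collagen receptor chain Itga11 44.3, 17.1, 40.5, 26.7 and 37.3 against 12.7 to 21.5, median 15.9. Replicate 2 lay inside the sham range for both and the other 4 above it. Itga8, a smooth muscle integrin, rose by 0.50. Calls higher under other settings were 4 in the 11 libraries alone, and 11 with array weights and with DESeq2. Leaving out single libraries gave 5 to 11, and the count moved by over 1.5 times without Ang II replicate 2.

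In the list of adhesion and cytoskeletal genes, 9 of 44 rose and 1 fell. Ilk, a scaffold that couples integrins to actin, measured 67.3, 75.5, 90.1, 83.1 and 91.7 with Ang II and 52.7 to 65.5, median 59.03 in sham, and Enah, an actin elongation factor, measured 133, 141, 121, 153 and 168 against 73.2 to 117, median 100.2. Both were free of overlap. The actin cross-linker Actn1, the focal adhesion protein Vcl and the LIM protein Csrp2 rose by 0.93, 0.53 and 0.70. S100a10, the annexin A2 partner, fell from 134 to 213, median 155 to 126, 103, 65.4, 94.8 and 125 (log2 fold change -0.69 ± 0.14). Members called higher numbered 5 in the 11 libraries alone, and 22 with array weights. The count ran from 2 to 19 when 1 library was left out, moving by over 1.5 times for Ang II replicates 2, 3 or 5.

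Contractile genes of smooth muscle had 5 of 31 higher, at a median of 0.20. Cald1, the actin-binding caldesmon, measured 370.5, 394, 579, 503 and 482 with Ang II and 292 to 352, median 338 in sham, without overlap (log2 fold change 0.49 ± 0.11). Actg2, the gamma smooth muscle actin, rose by 0.49, desmin, Des, by 0.55, and the coactivator of serum response factor Mkl1 by 0.60. Acta2, smooth muscle alpha-actin, was at 2395, 2369, 2536, 3013 and 3147 against 1932 to 2679, median 2417 and Myh11, smooth muscle myosin, at 1439, 1448, 2651, 2019 and 1835 against 1333 to 1818, median 1586. Their groups overlapped and neither was called (0.20 and 0.21, adjusted p = 0.4 and 0.39). In this list, calls higher numbered 1 with upper-quartile factors and in the 11 libraries alone, 2 with no filter on low values, with median-of-ratios factors, with trimmed-mean factors without acinar reads and with the length trend removed, and 13 with array weights. Without sham replicates 1, 2, 3, 4 or 6 or Ang II replicates 2, 3, 4 or 5 the count moved by over 1.5 times, and it ran from 1 to 10 over all 11 omissions.

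Targets of YAP and TEAD, a transcriptional pathway that responds to stretch and stiffness, rose in 8 of 30 cases at a median of 0.25. Besides Ctgf, the transmembrane protein Crim1 measured 239, 201, 304, 247 and 308 with Ang II and 137 to 189.8, median 164 in sham, without overlap. Axl, a receptor tyrosine kinase, rose by 0.48, Ccdc80 by 0.62, Asap1 by 0.46, Dock5 by 0.42 and Yap1 itself by 0.37. The count of 8 became 3 in the 11 libraries alone, 4 with no filter on low values, with median-of-ratios factors, with upper-quartile factors, with trimmed-mean factors without acinar reads and with the length trend removed, and 15 with array weights. Leaving out single libraries gave 2 to 13, and the count moved by over 1.5 times without sham replicates 2, 3, 4, 5 or 6 or Ang II replicates 2, 3, 4 or 5.

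Genes of the TGF-beta and BMP pathways were higher in 11 of 36 cases, with a median of 0.37. Among them is Ltbp2, the largest rise of the list, which the elastic fibre list also holds. Among ligands, Tgfb2 measured 37.9, 39.7, 40.3, 51.5 and 60.3 with Ang II and 22.9 to 34.8, median 28.7 in sham, Bmp2 11.9, 13.1, 13.1, 11.99 and 14.6 against 6.82 to 9.09, median 8.25, and Gdf6 6.51, 2.96, 2.26, 5.53 and 5.704 against 1.42 to 2.16, median 1.82. All 3 were free of overlap, at log2 fold changes of 0.65, 0.64 and 1.08. Tgfb1 measured 10.2, 6.49, 23.8, 9.82 and 12.5 against 5.57 to 7.498, median 6.33, with replicate 3 nearly 2-fold above the next library and replicate 2 inside the sham range (adjusted p = 0.035). The receptor Tgfbr2 rose by 0.38 and the inhibitory Smad7, itself a target of the pathway, by 0.58. The list had a mean level of 0.51, 0.20, 0.40, 0.46 and 0.41 in Ang II replicates 1 to 5 and of -0.11 to 0.12 in sham libraries, with no overlap. By setting, calls higher were 5 with no filter on low values, 6 with upper-quartile factors and in the 11 libraries alone, 7 with the length trend removed, and 24 with array weights. The count ran from 4 to 15 when 1 library was left out, moving by over 1.5 times for sham replicates 2, 3, 4 or 6 or Ang II replicates 1, 4 or 5.

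Growth factors and their binding proteins rose in 10 of 38 cases, although the list's median was only 0.14. Igfbp2, which binds insulin-like growth factors and lies on chromosome 1, 72824503 to 72852474, measured 38.7, 21.3, 35.1, 52.9 and 43.9 with Ang II and 6.26 to 10.1, median 7.44 in sham. Every Ang II library exceeded the highest sham value by more than 2-fold (log2 fold change 2.16 ± 0.31, adjusted p = 6.1e-04). Igf1, its ligand, measured 187, 178, 152, 241 and 212 against 91.5 to 131, median 101, also without overlap. Dio2, the deiodinase that activates thyroid hormone, measured 40.6, 52.9, 30.9, 74.5 and 61.7 against 11.7 to 19.5, median 13.6 (log2 fold change 1.70 ± 0.23, adjusted p = 4.4e-04). The mitogen Fgf2 measured 24.9, 23.2, 25.1, 27.8 and 21.8 against 11.6 to 15.4, median 14.1, and Pdgfc, a platelet-derived growth factor, 41.6, 39.6, 42.7, 40.7 and 47.9 against 22.4 to 30.05, median 27.2. In both the 5 Ang II libraries lay close together and above sham. The neurotrophin Bdnf was low and did not overlap, at 1.93, 0.945, 1.71, 2.17 and 2.48 against 0.227 to 0.75001, median 0.573. At 14 days only Ang II libraries reached the filter value of 1 for Bdnf, which bears on this separation. The fibroblast receptor Pdgfra was not called, at 0.021. 

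In the angiogenic list 4 of 26 rose and 2 fell. Angpt1, the agonist of the endothelial receptor Tek, fell from 28.4 to 36.9, median 33.1 in sham to 19.3, 27.5, 17.2, 21.4 and 23.6 with Ang II, without overlap (log2 fold change -0.62 ± 0.12, adjusted p = 0.0053). Angpt4, another ligand of the same family, fell by 0.53, while Angpt2, which can oppose Angpt1, was not called at 0.42 (adjusted p = 0.21). Esm1, an endothelial proteoglycan, measured 14.8, 9.24, 6.68, 11.5 and 10.7 against 2.499 to 7.07, median 4.92, with replicate 3 inside the sham range. The secreted Angptl2, the semaphorin Sema3d and the netrin receptor Unc5b rose by 0.66, 0.67 and 0.92. Vegfa, the main endothelial growth factor, was at 44.02, 44.2, 48.2, 50.5 and 52.9 against 46.7 to 53.7, median 50.6 and was not called. Members called higher numbered 8 with array weights.

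Wnt pathway genes were higher in 7 of 32 cases at a median of 0.34. The receptors Fzd1 and Fzd7 measured 81.1, 79.7, 96.6, 98.7 and 92.4 against 45.2 to 62.6, median 56.2 and 57.7, 49.6, 57.8, 66.3 and 70.4 against 26.7 to 42.6, median 38.01. Neither overlapped (adjusted p = 8.1e-04 and 0.0016). The secreted antagonists Sfrp4, Frzb and Dkk3 rose by 1.26, 1.01 and 0.88 and the coreceptor Lrp6 by 0.34. Axin2, a target gene of beta-catenin, was at 0.11 and was not called. In this list, calls higher numbered 4 in the 11 libraries alone, and 13 with array weights. The count ran from 3 to 10 when 1 library was left out, moving by over 1.5 times for Ang II replicate 4. Of 16 Notch genes only the coactivator Maml2 was called (0.51 ± 0.11), a share of 6.25% beside 4.04% called higher among all genes. The smooth muscle receptor Notch3 was not called (0.22, adjusted p = 0.63).

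Genes of the renin-angiotensin system itself were called higher in 9.09% and lower in 9.09% of cases, beside 4.04% and 2.01% of all genes tested. Of 11 measured, the aminopeptidase Anpep rose by 0.48 (adjusted p = 0.046) and Enpep, the aminopeptidase that degrades angiotensin II, fell from 27.4 to 64.6, median 38.8 to 18.96, 30.5, 19.8, 24.4 and 25.6 (adjusted p = 0.023). The groups overlapped for both, and neither was called without Ang II replicate 3. Agtr1a, the main receptor of angiotensin II, was at 9.69, 4.12, 12.2, 3.46 and 3.27 with Ang II against 3.46 to 9.17, median 4.15, and Ace, the converting enzyme, at 139.7, 90.6, 249.6, 209.7 and 200.1 against 102 to 154, median 131. Neither was called (adjusted p = 0.79 and 0.24).

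Among other vasoactive receptors and enzymes, 5 of 55 rose (9.09%) and 1 fell (1.82%), and all 6 were free of overlap. Among all genes tested 4.04% were called higher and 2.01% lower. Complete separation was found upwards in 2.36% of them and downwards in 1.29%. Htr1b and Htr2a, serotonin receptors that contract arteries, measured 7.71, 7.13, 15.8, 17.6 and 10.8 against 3.81 to 4.86, median 4.43 and 4.38, 5.29, 4.77, 4.89 and 4.62 against 2.19 to 3.19, median 2.58. P2ry6, a receptor for uridine diphosphate, measured 13.5, 7.99, 11.7, 9.22 and 11.4 against 4.71 to 6.58, median 5.83. Their log2 fold changes were 1.26, 0.77 and 0.85. Ednra, the endothelin receptor of smooth muscle, measured 18.8, 19.9, 24.1, 20.9 and 18.9 against 12.8 to 17.04, median 15.7, an increase of 0.43 ± 0.11. Ptgis, prostacyclin synthase, rose by 0.59, while Ptgds, a prostaglandin D synthase, fell from 1.31 to 5.58, median 1.86 to 0.886, 0.988, 0.301, 0.968 and 1.05. The endothelin gene Edn1 and the endothelial nitric oxide synthase Nos3 were not called (0.066 and 0.026). The count of 5 became 8 with DESeq2, and 11 with array weights. Without Ang II replicate 2 the count moved by over 1.5 times, and it ran from 4 to 10 over all 11 omissions.

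Of all genes tested, 4.04% were called higher and 2.01% lower. Of G protein regulators 2 of 29 were called (6.90%, both higher), Rgs12 at 0.47 and the receptor kinase Adrbk1 at 0.36. Rgs2 and Rgs5, which shorten Gq signals in smooth muscle, were not (-0.24 and -0.17). Of 33 potassium channel genes, Abcc9, the regulatory subunit of vascular ATP-sensitive channels, rose from 53.3 to 85.3, median 76 to 121, 124, 105, 182 and 124 (log2 fold change 0.82 ± 0.16, adjusted p = 0.0053), while Kcne3 and Kcnk1 fell by 0.90 and 0.85. All 3 were free of overlap. Among 44 calcium and other channel genes 5 rose and 1 fell. Piezo2, a mechanically gated channel, measured 70.3, 39.4, 42.9, 45.1 and 53.7 with Ang II and 21.9 to 29.1, median 24.2 in sham, with no overlap (log2 fold change 1.00 ± 0.14, adjusted p = 4.4e-04). The calcium pump Atp2b1 and the channel subunit Cacna2d1 rose by 0.33 and 0.40, again without overlap, and Cacnb3 and Pkd1 by 0.77 and 0.68. By setting, calls higher were 3 with the length trend removed, and 11 with array weights. Leaving out single libraries gave 3 to 7, and the count moved by over 1.5 times without Ang II replicate 3. Pln, the inhibitor of the sarcoplasmic calcium pump, fell by 0.88, with replicate 2 inside the sham range.

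The circadian clock runs on a loop in which Arntl with Clock or Npas2 switches on the Per and Cry repressors, and in which REV-ERB and ROR receptors act back on Arntl. Activators bind the E-box CACGTG, REV-ERB and ROR receptors bind AGGTCA, and the output factors Dbp, Tef and Hlf bind D-boxes such as TTATGTAA. The promoters of 4 clock genes that moved at 14 days are printed to show one of these motifs. Matches are in capitals, on the printed or the opposite strand. Each window runs from 250 bases before to 50 bases after an annotated start, on the gene's own strand, from RefSeq on GRCm38.p6. Arntl and Tef had 2 annotated starts each, and a window was printed only from a start that held the motif. The AGGTCA of Arntl is 31 bases after the start site, the CACGTG of Bhlhe41 153 and that of Tef 127 bases before it, and Per3 holds 2 matches to TTATGTAA, the first 205 bases before it.
Arntl, chr7:113207261-113207560, plus strand: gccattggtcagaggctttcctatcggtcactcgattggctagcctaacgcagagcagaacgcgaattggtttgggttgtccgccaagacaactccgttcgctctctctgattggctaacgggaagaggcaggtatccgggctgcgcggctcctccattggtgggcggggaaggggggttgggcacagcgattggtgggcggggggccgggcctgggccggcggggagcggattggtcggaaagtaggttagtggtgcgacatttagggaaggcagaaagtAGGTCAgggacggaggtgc
Bhlhe41, chr6:145865371-145865670, minus strand: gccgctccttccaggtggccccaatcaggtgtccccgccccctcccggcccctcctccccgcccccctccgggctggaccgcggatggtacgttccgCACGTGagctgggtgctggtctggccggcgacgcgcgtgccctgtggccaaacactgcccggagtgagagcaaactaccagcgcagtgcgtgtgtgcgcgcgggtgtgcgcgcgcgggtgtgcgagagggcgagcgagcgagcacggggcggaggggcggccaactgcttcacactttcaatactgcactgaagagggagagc
Tef, chr15:81802423-81802722, plus strand: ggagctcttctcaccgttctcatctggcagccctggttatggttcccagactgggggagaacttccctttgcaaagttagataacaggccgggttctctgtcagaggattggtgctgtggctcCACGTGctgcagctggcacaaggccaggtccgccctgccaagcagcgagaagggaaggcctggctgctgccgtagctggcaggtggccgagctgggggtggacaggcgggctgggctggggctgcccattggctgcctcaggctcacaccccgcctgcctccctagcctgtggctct
Per3, chr4:151044616-151044915, minus strand: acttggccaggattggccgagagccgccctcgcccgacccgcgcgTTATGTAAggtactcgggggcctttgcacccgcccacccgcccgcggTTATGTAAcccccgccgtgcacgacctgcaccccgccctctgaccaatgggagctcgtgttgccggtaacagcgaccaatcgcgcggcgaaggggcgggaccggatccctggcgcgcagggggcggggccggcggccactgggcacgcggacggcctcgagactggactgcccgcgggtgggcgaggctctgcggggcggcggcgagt
No match overlapped another motif. Of 32851 promoters of this length, 7.15% held CACGTG, 16.26% AGGTCA and 0.9376% TTATGTAA on either strand. Of 22 clock genes tested 17 had a promoter in the table, and 4, 5 and 2 of these held the 3 motifs. A clock gene was counted when any of its starts held the motif, while the shares over all promoters count single promoters. A match describes the letters and is not evidence of binding.

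Clock genes changed in both directions, 6 of 22 higher and 3 lower. The activator Arntl, whose promoter opens the printed set, measured 17.6, 3.22, 2.46, 5.76 and 2.74 with Ang II and 32.8, 5.24, 26.6, 31.7, 11.4 and 25.7 in sham replicates 1 to 6. The lowest sham libraries were replicates 2 and 5, and Ang II replicate 1 was the highest of its group (log2 fold change -1.87 ± 0.42, adjusted p = 0.013). Npas2, an alternative partner of Arntl, fell from 2.67 to 11.7, median 7.53 to 3.28, 1.37, 0.753, 1.94 and 1.39, and Clock from 89.4 to 126, median 113 to 98.5, 83.5, 60.8, 89.5 and 83.2. The repressor Per3 measured 49.1, 80.5, 142, 102 and 106 with Ang II and 20.6, 58.97, 20.97, 15.7, 63.6 and 28.3 in sham replicates 1 to 6. Here sham replicates 2 and 5 were the highest of their group and Ang II replicate 1 the lowest of its own. Per2 measured 62.3, 53.1, 103, 89.5 and 81.6 against 17.7 to 85.7, median 27.8, with sham replicates 2 and 5 again the highest sham libraries. The output factor Hlf measured 15.5, 26.5, 43.6, 31.8 and 32.5 against 3.75 to 18.2, median 7.38, and Bhlhe41, a repressor at E-boxes, 16.2, 23.8, 20.8, 24.9 and 37.6 against 5.33 to 21.4, median 8.69. Bhlhe40, its paralogue, was the only called clock gene whose groups did not overlap, at 29.7, 29.2, 61.4, 33.6 and 53.03 against 16.3 to 28.02, median 22.4. Log2 fold changes were 1.58, 1.21, 1.70, 1.21 and 0.87. Tef, singled out after its values were seen, measured 124, 203, 229, 198 and 229.8 against 60.99 to 183, median 88.5 (0.94, adjusted p = 0.025). Nr1d1, which encodes REV-ERB alpha, spanned 2.42 to 45.1 in sham and 3.13 to 73.6 with Ang II and was not called. The 7-day median of the list was -0.029 and no clock gene was called then. Arntl was at 0.091 at 7 days, and the difference between the responses had an adjusted p of 0.46. The hour at which tissue was taken is not given in the sources used here, so that clock phase and treatment cannot be told apart. Calls higher under other settings were 2 in the 11 libraries alone, and 11 with array weights.

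**Figure D4:**
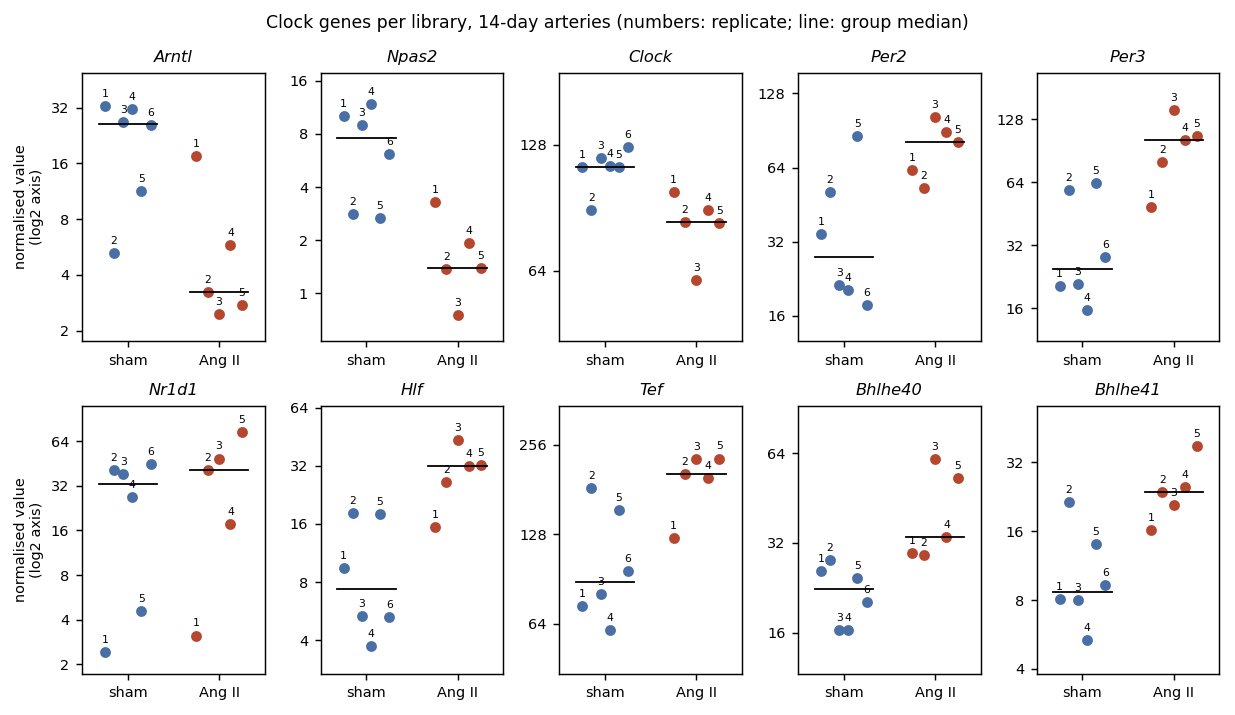
Normalised value (log2 axis) of 10 clock genes in each 14-day library, with replicate numbers and a line at the group median. Sham replicates 2 and 5 lie towards the Ang II libraries for Arntl, Npas2, Per3, Hlf and Tef, and Ang II replicate 1 lies towards sham for Arntl, Npas2, Per3, Hlf and Tef.

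Immediate early genes, transcribed within minutes of a stimulus, varied widely within groups. Fos spanned 6.498 to 187 in sham and 98.7 to 405 with Ang II, and Egr1 12.5 to 98.002 and 72.1 to 187. Neither was called despite log2 fold changes of 2.25 and 1.35 (adjusted p = 0.082 and 0.18). Of 24 members 22 were above sham on average, and Ier3 alone was called (0.62 ± 0.16). Its share of 4.17% stands beside 4.04% called higher among all genes. None of 18 glucocorticoid-responsive genes was called, with a median of -0.30, Fkbp5 at -0.35 and Pdk4 at -0.62. Among 20 ETS transcription factors, Etv5 and the myeloid factor Spi1 rose by 0.60 and 0.79 without overlap, and Ets1 was not called (0.069).

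Genes of dividing cells were higher. All 38 mitosis genes tested had a positive fold change, with a median of 0.69, and 14 passed the test. The filter on low values could admit low members through the Ang II libraries alone, which bears on the count of 38. How many entered in that way was not counted. Kif20a, a kinesin of cytokinesis, measured 4.85, 2.71, 2.76, 4.06 and 3.49 with Ang II and 1.02 to 1.75, median 1.26 in sham. Prc1, which bundles the spindle midzone, measured 9.64, 6.101, 4.27, 7.93 and 7.21 against 1.9995 to 3.99, median 2.98. Mki67, the common marker of proliferation, measured 35.2, 23.8, 16.5, 28.2 and 33.5 against 12.3 to 15.7, median 14.8. The 3 genes did not overlap between groups, and replicate 3 or replicate 2 gave the lowest Ang II value (log2 fold change 1.14, 1.12 and 0.86). The kinetochore genes Cenpe and Cenpf and the cytokinesis gene Anln rose by 0.92, 1.06 and 0.87. Mean levels of the list over sham were 1.15, 0.45, 0.23, 0.79 and 0.81 in Ang II replicates 1 to 5 and -0.074 to 0.073 in sham libraries. At 7 days the median was 0.98 and 18 members were called, where 0.752% of all genes were called higher and 0.0671% lower. With a filter at a value of 5, 8 of the 10 members still tested were called higher. Of the 38, calls higher numbered 9 with the length trend removed, 24 with DESeq2, and 31 with array weights. Without sham replicate 3 or Ang II replicates 4 or 5 the count moved by over 1.5 times, and it ran from 8 to 17 over all 11 omissions. Of 33 DNA replication genes 2 were called higher, or 6.06%, beside 4.04% among all genes. These were E2f1 at 0.76 and the helicase subunit Mcm6 at 0.38, while Mcm2 and Rrm2 were not called (0.044 and 0.32).

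Among markers of cell types in the artery wall, 21.1% of fibroblast and 22.2% of lymphatic genes were called higher. Among all genes tested 4.04% were higher and 2.01% lower. None of 25 endothelial genes passed the test, at a median of 0.031. Pecam1 was at 451, 535, 499, 548 and 602 with Ang II against 537 to 739, median 618 in sham, and Cdh5 at 84.04, 75.8, 96.2, 87.2 and 103 against 72.004 to 94.2, median 81.2, both with overlap. Of 19 fibroblast genes 4 rose, 3 of them being Lox, Lum and Col14a1, which are also matrix genes, and the other the adventitial gene Pi16 (0.77 ± 0.17). In this list, calls higher numbered 8 with array weights. Among 9 lymphatic genes, Itga9 and Sema3d rose, both also in other lists, and Prox1, the defining factor, was not called (0.27). No adipocyte or mesothelial gene of 19 and 13 tested was called, with Adipoq at 107, 155, 89.9, 173 and 120.3 against 59.6 to 340.04, median 122. Schwann cell genes had 1 call in 17, Gldn (0.77). Neuronal genes had no call in 18. Th, the marker of sympathetic neurons, measured 55.02, 0.387, 83.2, 0.277 and 0.4503 with Ang II, high in replicates 1 and 3, and 0.167 to 38.1 in sham.

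Shares of immune genes called higher were 3.57% (macrophage and monocyte), 7.69% (antigen presentation) and 6.67% (chemokines and cytokines). Among all genes tested the share was 4.04%. Of 28 macrophage and monocyte genes Csf1r alone rose, at 135, 94.5, 100.1, 93.6 and 82.4 against 50.3 to 83.8, median 64.03 (log2 fold change 0.62 ± 0.17, adjusted p = 0.028), with 1 Ang II library inside the sham range. Emr1 and Cd68 were at 0.41 and 0.54 and were not called. The list's level over sham was 0.83, 0.54, -0.046, 0.19 and -0.10 in Ang II replicates 1 to 5 against -0.20 to 0.37, so that replicates 1 and 2 alone lay above every sham library. Ciita, which switches on class II genes, measured 21.8, 11, 18.1, 11.3 and 11.7 against 5.25 to 10.1, median 7.93, but the class II gene H2-Aa was not called (0.50, adjusted p = 0.25). Among 30 chemokines and cytokines, Cxcl12, made by stromal cells, rose from 30.6 to 41.3, median 37.4 to 59.2, 47.2, 91.5, 70.4 and 56.5 without overlap. Il6 measured 10.003, 0.816, 1.05, 4.47 and 1.73 against 0.5405 to 1.097, median 0.5897 and was called at an adjusted p of 0.048, although replicates 2 and 3 lay inside the sham range. Ccl2 was not called, although replicate 1, at 18.6, 4.04, 2.71, 3.41 and 2.66 across the 5, stood above all others. None of 14 lymphocyte, 8 mast cell, 4 neutrophil and 35 interferon-response genes was called. The lymphocyte list stood at 0.53, 1.43, -0.38, -0.14 and -0.28 in Ang II replicates 1 to 5 and -0.51 to 0.53 in sham, so that Ang II replicate 2 was apart, and the neutrophil list at 0.68, -0.59, 0.42, -1.39 and -1.33 and -1.74 to 2.54, with sham replicate 4 the highest.

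**Figure D5:**
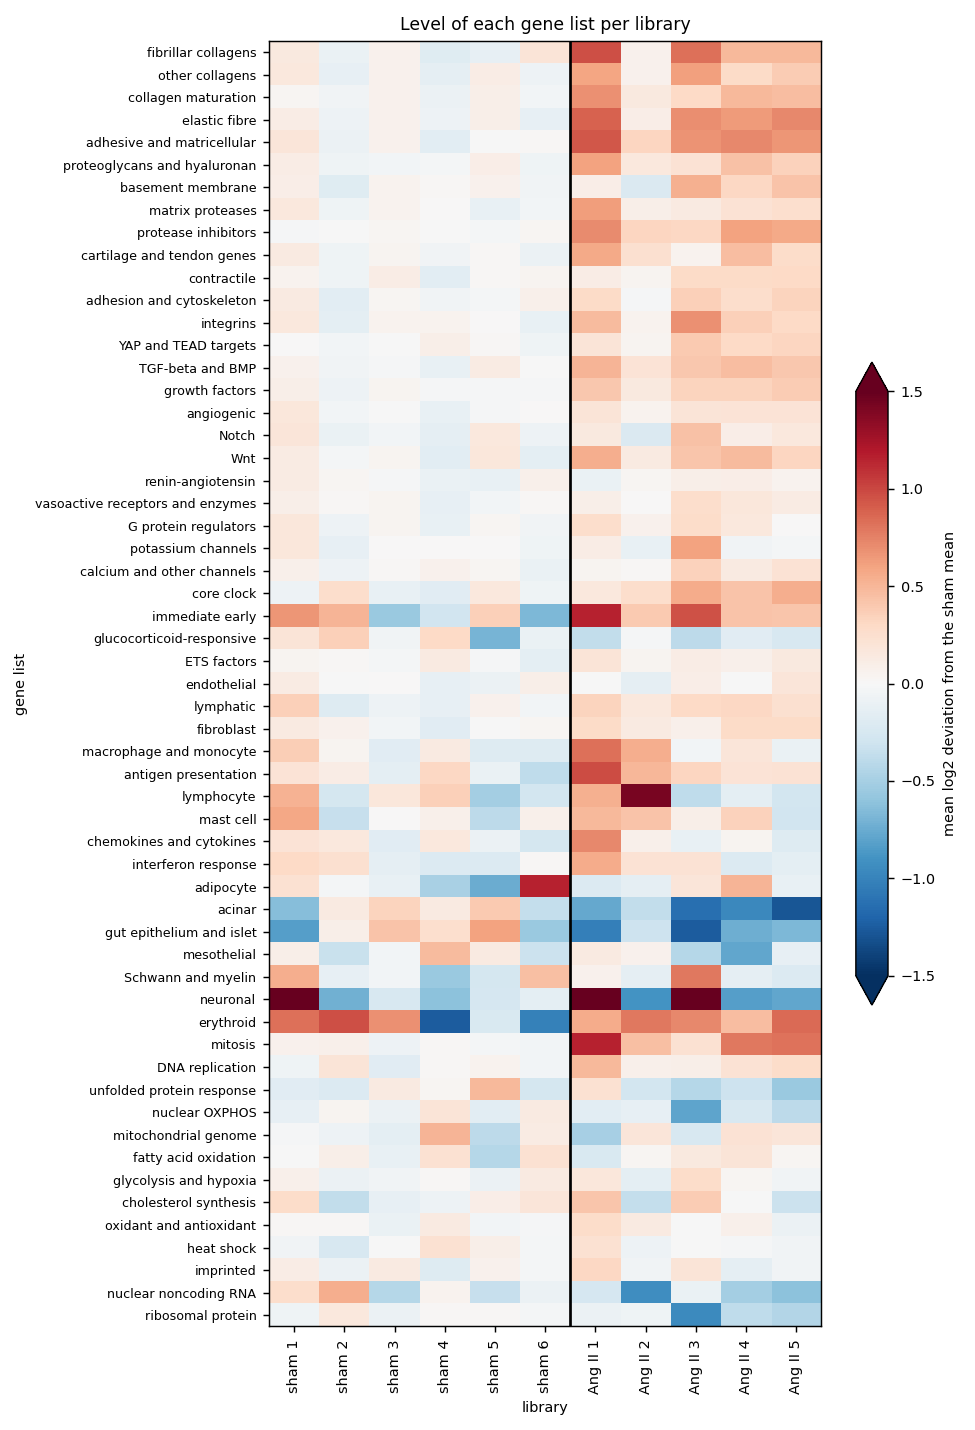
Mean log2 deviation from the sham mean of each gene list (rows, lists with at least 8 tested members) in each 14-day library (columns), colour clipped at 1.5. Among Ang II libraries most matrix lists are lowest in replicate 2 and the mitosis list in replicate 3. The neuronal list is red in sham 1, Ang II 1 and Ang II 3, and the ribosomal protein and OXPHOS lists are blue in Ang II replicate 3.

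The lowered genes included many of the exocrine pancreas. Of 34 acinar genes 24 fell and none rose, at a median of -0.90. Rnase1, a secreted ribonuclease, fell from 2294 to 3816, median 3516 in sham to 1592, 2085, 1348, 1523 and 1175 with Ang II. Spink3, a trypsin inhibitor, fell from 280.3 to 551, median 392 to 204, 256, 92.6, 153 and 117. In both genes every Ang II library lay below every sham library, and replicate 2 was the closest to sham. Zg16, Clps, Sycn, Amy1 and 2210010C04Rik, genes of zymogen granules and digestive enzymes, fell by 1.21, 1.22, 1.16, 0.82 and 1.04, each with some overlap. Pnlip, pancreatic lipase, was at 15047, 19184, 11339.9, 13270 and 9745 against 16627 to 34883, median 26876 and missed the threshold (adjusted p = 0.052). Levels of the list over the sham mean were -0.77, -0.37, -1.13, -0.97 and -1.28 in Ang II replicates 1 to 5 and -0.64 to 0.39 in sham. Their median exon length was 1621 bases. The count of 24 became 14 in the 11 libraries alone, and 15 with the length trend removed. The count ran from 5 to 29 when 1 library was left out, moving by over 1.5 times for sham replicates 2, 3, 4 or 5 or Ang II replicates 3, 4 or 5.

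The Reg family of secreted lectins, also made by the exocrine pancreas, had a median of -2.18 over 6 genes, with Reg1 and Reg3d called (-1.30 ± 0.29 and -1.71 ± 0.40). Reg3d spanned 55.2 to 212 in sham and 24.9 to 72.1 with Ang II. Other strongly lowered genes had no list. Tff2, a trefoil factor, fell from 381 to 730.2, median 601 to 287, 362, 199, 244 and 196, and Nupr1, a stress-induced nuclear protein, from 171 to 295, median 212 to 88.99, 135, 68.1, 90.1 and 114. Both were free of overlap. Tmed6, Tmed11, Serpini2 and Fxyd3 fell by 1.19, 1.15, 1.11 and 1.18. The water channel Aqp8 fell from 2.09 to 5.89, median 2.83 to 1.15, 1.76, 0.954, 0.507 and 0.713, the glucose transporter Slc5a1 from 10.3 to 18.7, median 12.5 to 5.21, 6.75, 4.57, 6.27 and 8.97 and the basement membrane glycoprotein Tinag from 2.58 to 3.81, median 3.17 to 1.198, 1.93, 1.104, 1.38 and 1.69. All 3 were low and without overlap. Habp2, Il22ra1, Serpinb1a, Tmem27 and Ranbp3l fell by 0.97, 0.92, 0.85, 1.17 and 1.70. How far these genes share a source with the acinar genes was not tested. All 9 genes tested of the gut epithelium and islet list had a negative fold change, at a median of -0.82, and none was called.

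Further named genes also fell. Ppp1r3c, which targets a phosphatase to glycogen, fell from 22.2 to 29.3, median 25.1 in sham to 16.8, 14.1, 12.2, 17.8 and 10.9 with Ang II (log2 fold change -0.82 ± 0.14, adjusted p = 0.0016). Cystm1 and Gramd4 fell by 0.52 and 0.52. Vip, the gene of a vasodilator neuropeptide, fell from 15.8 to 33.97, median 23.1 to 5.73, 12.8, 6.98, 11.5 and 13.2 (log2 fold change -1.20 ± 0.30, adjusted p = 0.022). None of these 4 overlapped between groups. Vip was below sham also in the Ang II replicates 1 and 3 whose neuronal levels were high.

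Ribosomal protein genes fell in 22 of 77 cases, and 1 had a positive fold change; the median was -0.38. By setting, calls lower were 0 in the 11 libraries alone, 9 with no filter on low values, 36 with trimmed-mean factors without acinar reads, 37 with upper-quartile factors, 46 with DESeq2, and 65 with array weights. Without sham replicates 2, 3, 4, 5 or 6 or Ang II replicates 1, 2, 3, 4 or 5 the count moved by over 1.5 times, and it ran from 3 to 57 over all 11 omissions. Rpl32 measured 317, 314, 151, 257 and 235 with Ang II against 346 to 424, median 396, and Rps25 291, 289, 111, 229 and 223 against 326 to 353, median 336. Both lay below sham in every Ang II library, with replicate 3 the lowest. Rpl38, Rps24, Rpl21 and Rpl10 fell by 0.61, 0.46, 0.52 and 0.44. Rplp0 and Rps6 were not called (-0.27 and -0.23). Across libraries the list was at -0.083, -0.066, -0.96, -0.38 and -0.44 in Ang II replicates 1 to 5 and -0.092 to 0.15 in sham. These genes are short, with a median of 1830 exonic bases, and 19 fell with the length trend removed. Many have near-identical processed copies elsewhere in the genome, so that their counts depend on how reads with several matches were treated.

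Nuclear genes of oxidative phosphorylation fell in 20 of 80 cases and none rose, with a median of -0.30. Ndufb11, a subunit of complex I, measured 43.5, 47.3, 29.02, 42.4 and 41.5 with Ang II against 52.4 to 61.3, median 57.3, and Cox7a2, of cytochrome oxidase, 73.04, 72.5, 34.7, 66.8 and 62.4 against 85.4 to 111, median 90.1. Each was below sham in all 5 libraries, and replicate 3 was the lowest. The complex I subunits Ndufa3, Ndufa4 and Ndufb8 fell by 0.51, 0.60 and 0.50, the ATP synthase subunit Atp5h by 0.47 and cytochrome c, Cycs, by 0.58. The median exon length was 1696 bases. With the length trend removed 15 fell. Calls lower under other settings were 2 in the 11 libraries alone, 12 with no filter on low values, 31 with DESeq2, and 42 with array weights. Leaving out single libraries gave 5 to 34, and the count moved by over 1.5 times without sham replicates 2, 3, 4 or 6 or Ang II replicates 2, 3, 4 or 5. Of 9 genes on the mitochondrial genome none was called, at a median of -0.095, with mt-Co1 at -0.33 and mt-Nd1 at -0.13.

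In the unfolded protein response only the sensor kinase Eif2ak3 fell (-0.46 ± 0.13) of 27 genes, or 3.70%, beside 2.01% among all genes. The list's median was -0.25, and 7 members were lower without Ang II replicate 1. Of the Ang II libraries replicate 1 was the highest for the chaperone Hspa5, at 841, 334, 243, 324 and 240.1 against 289 to 989, median 473 in sham. No gene of glycolysis and hypoxia (30 tested), cholesterol synthesis (21) or genomic imprinting (21) was called. Of 34 fatty acid oxidation genes only the uncoupling protein Ucp2 was called (0.78), and of 18 heat shock genes only Hspb7 (0.92). These shares are 2.94% and 5.56%, beside 4.04% called higher among all genes. Sod3, the extracellular superoxide dismutase, measured 58.3, 43.5, 76.7, 80.2 and 58.8 with Ang II and 32.9 to 38.6, median 36.04 in sham, with no overlap (log2 fold change 0.77 ± 0.12, adjusted p = 0.0012). Nox4, an oxidase of vascular cells, measured 193, 245, 165, 235 and 208 against 102 to 178, median 143 and missed the threshold (adjusted p = 0.058). Among nuclear noncoding RNAs Neat1 rose by 0.47, Gas5 and Rn7sk fell by 0.54 and 0.81, and Malat1 was not called (0.24). The noncoding transcript AY036118 took 0.799% to 9.35% of reads in sham and 0.0431% to 0.934% in Ang II libraries and was not called (adjusted p = 0.1). Sham replicate 5 alone, at 0.799%, lay below the highest Ang II library. The lowest log2 fold change of all genes tested, -3.89, was in the list of nuclear noncoding RNAs.

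Several of the smallest p-values belonged to genes outside the lists. Gnb4, a G protein beta subunit on chromosome 3, 32580332 to 32616585, measured 56.4, 56.9, 59.5, 58.5 and 54.9 with Ang II and 31.4 to 41.3, median 35.7 in sham. The Ang II values spanned less than 10% and stood clear of sham (log2 fold change 0.65 ± 0.086, adjusted p = 3.5e-04). Scube3, a secreted protein that binds TGF-beta receptors, measured 56.7, 37.1, 69.1, 61.3 and 80.4 against 14.7 to 27.3, median 18.03 and rose by 1.57. Slc6a6, the taurine transporter, measured 97.9, 87.4, 134, 113 and 139.98 against 53.8 to 73.7, median 64.2. Gxylt2, which adds xylose to glucose on epidermal growth factor repeats, measured 14.5, 12.5, 14.96, 19.1 and 19.9 against 3.83 to 7.75, median 7.61. None of these overlapped. Samd4, an RNA-binding translational repressor, rose by 0.88, Map2k3, an activator of p38 kinase, by 0.65, the actin regulator Wipf1 by 0.53 and the serine protease Htra4 by 1.34, also without overlap. Kif26b, a kinesin-family protein, spanned 4.64 to 20.3 against 2.32 to 5.17, with replicate 2 inside the sham range and an adjusted p of 0.022.

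Set beside the 7-day arteries, the 14-day comparison called more genes, but no gene differed between the responses after adjustment. The 7-day libraries held 4471038 to 18817155 reads, with AY036118 at 0.0788% to 36.2% of them, and the 14-day libraries 8807407 to 21509283. The part of depth in the number of calls was not tested. Of the genes raised at 14 days 77 were also raised at 7 days, where 112 genes rose and 10 fell in all. Of those lowered at 14 days 4 were lowered at 7 days, and no gene was called in opposite directions. The median 7-day log2 fold change of the genes raised at 14 days was 0.20 beside 0.59 at 14 days, and of the lowered genes -0.11 beside -0.63. A positive 7-day value was found in 519 of the 602 raised and a negative one in 235 of the 300 lowered genes. Both sets were chosen by their 14-day values, so that medians farther from 0 at 14 days follow from the choice. The 7-day median over all genes tested was 0.0017, and the share of positive values among them was not counted. In the test of the difference itself, limma called 0 of 14896 genes, with 1396 at an unadjusted p under 0.05; DESeq2 called 3 higher and 4 lower, and limma with array weights called 51 and 16. Fibrillar collagen, elastic fibre and mitosis genes had 7-day medians of 0.90, 0.42 and 0.98 beside 0.76, 0.53 and 0.69 at 14 days. Among named genes, Igfbp2 rose by 2.12 and 2.16 at 7 and 14 days, Dio2 by 2.01 and 1.70, and Piezo2 by 1.04 and 1.00. Aebp1 was at 0.10 at 7 days and 0.89 at 14 days, Fzd1 at 0.13 and 0.70, and Dkk3 at 0.11 and 0.88. Their differences had adjusted p-values of 0.45, 0.45 and 0.51.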

How the data were processed

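The authors deposited 1 table of 39179 mouse Ensembl genes by 23 libraries. Its values are a normalised signal that the authors had scaled per library: dividing by 1 factor per library gives whole reads (within 0.001 read) for 100% of the 460324 values above 0. The normalization method is not given in the sources used here. Per the submitters' processing notes, the build was mm10 and the tools were edgeR 3.6.8 in R 3.2.3, HTSeq 0.5.3p3, STAR 2.3.1, FastQC and bcl2fastq 1.8.4, and whether counting used strand is not given, so that overlapping and antisense genes, and near-identical copies, are uncertain.

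Genes with a value of at least 1 in at least 5 libraries were kept, which left 14896; another 12787 were at 0 in every library. log2(value + 0.5) was fitted with limma 3.58.1 in R 4.3.3, with 4 group means over all 23 libraries and the trend and robust options, and p-values were adjusted by Benjamini and Hochberg with a threshold of 0.05. Alternatives were other filters, pseudocounts and scalings, edgeR 4.0.16 and DESeq2 1.42.0 on the recovered reads, array weights, the 11 libraries alone, the first 2 digits of the title number as a term or a subset, each library left out in turn and, chosen after seeing the data, removal of a lowess trend (span 0.3) on exon length. The fits were tested on simulated data. Exon lengths came from GENCODE M21, which held 37607 of the identifiers and 14759 of the tested genes. Promoters came from RefSeq (GRCm38.p6) and were matched by symbol.

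Groups follow the treatment labels, each library being 1 animal; replicate numbers follow accession order and pair nothing. The libraries at 14 days held 8807407 to 21509283 reads. The labels describe RNA quality as assessed without giving values. Named genes were those marked in the gene lists, the 15 largest called rises and falls with a mean value of at least 5, the 15 smallest p in each direction, up to 6 called members of each list by p, and AY036118. The comparison, the members of the 60 lists and this rule were chosen with earlier results of these data known. Some genes that the rule would name are not reported here.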

Additional observations from a re-analysis of the deposited data

Results flagged for a closer look

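Of 524 groups of values checked, 39 held 1 library farther from the rest than Dixon's 95% critical value allows; chance flags about 1 in 20 groups. Each is given with the range of the other libraries of its group, and none of their causes was tested. Mean log2 levels over the sham mean stood apart in these lists. The neuronal list was at 1.96 in sham replicate 1 and -0.72 to -0.14 in the other 5 libraries of its group. The skeletal muscle list was at 2.84 in sham replicate 4 and -1.02 to -0.24 in the other 5 libraries of its group.

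In Ang II replicate 1, Arntl was at 17.6 against 2.46 to 5.76, Ccl2 was at 18.6 against 2.66 to 4.04 and Col5a2 was at 673 against 276 to 382 in the other 4 libraries. There, Comp was at 29.5 against 7.43 to 10.2, Hspa5 was at 841 against 240.1 to 334 and Il22ra1 was at 3.59 against 2.51 to 2.72. In that library, also, Mmp2 was at 337 against 176 to 222, Runx1 was at 30.8 against 15.2 to 17.5 and Spi1 was at 13.9 against 5.44 to 6.75. In that library, also, Tgfbr2 was at 270.5 against 182 to 206 and Timp1 was at 85.3 against 12.7 to 25.8. In Ang II replicate 2, Col18a1 was at 311 against 636 to 710.04 and Eln was at 90.6 against 213 to 250.1 in the other 4 libraries. In Ang II replicate 3, Cox7a2 was at 34.7 against 62.4 to 73.04, Ndufa4 was at 36.5 against 83.4 to 96.9 and Ptgds was at 0.301 against 0.886 to 1.05 in the other 4 libraries. There, Rn7sk was at 8311 against 13348 to 15039.7. In Ang II replicate 4, Abcc9 was at 182 against 105 to 124 and Htra4 was at 15.5 against 7.43 to 9.27 in the other 4 libraries. In sham replicate 1, Igf1 was at 131 against 91.5 to 106, Kif26b was at 5.17 against 2.32 to 2.92 and Th was at 38.1 against 0.167 to 2.21 in the other 5 libraries. In sham replicate 2, Clock was at 89.4 against 113 to 126, Col6a3 was at 162 against 241 to 279.9 and Mcm6 was at 32.2 against 23.01 to 26.2 in the other 5 libraries. There, Samd4 was at 59.6 against 80.4 to 86.3. In sham replicate 3, Actg2 was at 140.03 against 97.7 to 108 and Aqp8 was at 5.89 against 2.09 to 3.18 in the other 5 libraries. In sham replicate 4, Gxylt2 was at 3.83 against 7.55 to 7.75, Pln was at 234 against 70.5 to 109 and Ptgds was at 5.58 against 1.31 to 2.56 in the other 5 libraries. In sham replicate 5, Hspa5 was at 989 against 289 to 508, Map2k3 was at 20.96 against 18.2 to 19.1 and Pdk4 was at 14.2 against 66.2 to 89.5 in the other 5 libraries. In sham replicate 6, Adipoq was at 340.04 against 59.6 to 137, Cox7a2 was at 111 against 85.4 to 93.4 and Enpep was at 64.6 against 27.4 to 40.2 in the other 5 libraries.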

How the results depend on the processing

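No paired analysis was possible because the replicate numbers only follow accession order. Of 602 raised and 300 lowered genes, all kept their sign under every other filter, pseudocount, scaling and fit in which they were tested. The counts moved by over 1.5 times as follows. Array weights gave 2172 higher and 1462 lower, and 67 for the difference of the responses. DESeq2 gave 1029, 766 and 7. The array weights of Ang II replicates 1 to 5 were 0.57, 0.61, 0.28, 4.01 and 1.56, so that replicate 4 counted most. Those of the 14-day sham libraries were 0.94 to 2.65. The 11 libraries alone gave 258 and 85, the title digits as a term 14 and 2, and the libraries with title digits 26 alone 0 and 0, with 1510 genes at an unadjusted p under 0.05. No filter on low values gave 163 lower, upper-quartile factors 465 lower and removal of the length trend 397 higher. Leaving out 1 library at a time gave 283 to 1410 higher and 76 to 783 lower; the raised count was lowest without Ang II replicate 4, and the lowered count lowest without replicate 3, while both were highest without replicate 2. One or both counts fell by over 1.5 times without sham replicates 2, 3, 4 or 6 or Ang II replicates 3, 4 or 5. The difference between the responses had 0 calls in each fit without 1 library. Of 204 called genes named in the text, 121 stayed called under every other setting apart from those on the title digits, the 11 libraries and exon length, and none changed sign. The causes were not tested. Depth limits low genes most: Acan, Bdnf, Ptgds, Tinag and Ranbp3l had values near or below 1 in some libraries. At 14 days 1 read was worth 0.0375 to 0.0521 in Ang II and 0.0540 to 0.122 in sham libraries, without overlap. The part of this difference in the results was not tested.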
